A study of Mus musculus with 4 samples.

Results

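The genes described here are 8 that act in calling neutrophils into inflamed tissue, out of 32285 genes measured. They were chosen by name, with earlier results of these data known. Of the 8, 3 encode secreted ligands, Cxcl1, Cxcl2 and Cxcl3, and 5 encode receptors, Cxcr2, Csf3r, C5ar1, Fpr1 and Fpr2. All 8 were listed in each of 4 single-cell libraries. Each library held live CD45+ leukocytes sorted from subcutaneous tumours grown in male C57BL/6 mice from the KPC line, a mouse pancreatic tumour line. The groups were untreated mice, mice given a STING agonist (ADU-S100, a cyclic dinucleotide injected into the tumour), mice given an LTbR agonist (the antibody 4H8 against the lymphotoxin beta receptor, given repeatedly into the peritoneum) and mice given both, called the combination. Tumours were pooled within a group, as the study's methods describe. By those methods they were taken on the day of tumour resection, days after the last dose of either agonist. The STING agonist was given as a single injection at the start of treatment. Responses in the first hours after a dose were therefore not sampled here. There was 1 library per group and so no replicate, and no difference between groups below has a test. Intervals cover 95% of counting error only, and differences between mice, tumours and runs are not in them.

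Cxcl1, Cxcl2 and Cxcl3 are CXC chemokines that bind CXCR2, the receptor that steers neutrophils out of bone marrow and blood into tissue. Their genes are switched on within a short time by NF-kB, and their mRNAs are short-lived. Csf3r encodes the receptor for G-CSF, the growth factor that drives neutrophil production and survival. C5ar1 encodes the receptor for the complement fragment C5a, and Fpr1 and Fpr2 encode receptors for formylated peptides of bacteria and mitochondria, with Fpr2 also binding lipid mediators and annexin A1. Macrophages, monocytes and neutrophils can each secrete these ligands, so that neutrophils in a tumour can amplify their own recruitment.

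The 3 ligand genes lie together on chromosome 5 of GRCm38, all on the plus strand: Cxcl3 at chr5:90786103-90789600, Cxcl1 at chr5:90891241-90893115 and Cxcl2 at chr5:90903871-90905938. A gap of 10755 bases separates Cxcl1 from Cxcl2 and a gap of 101640 bases separates Cxcl3 from Cxcl1. The stretches of 100 bases ahead of their start sites are shown because the ligands, unlike the receptors, share a motif there. Each stretch ends ahead of the earlier of the RefSeq and GENCODE starts. The RefSeq starts of Cxcl1, Cxcl2 and Cxcl3 are at 90891245, 90903899 and 90786101, so for Cxcl1 and Cxcl2 the stretch ends short of the RefSeq start. Sequences are from RefSeq (GRCm38.p6, plus strand, 5′ to 3′, matched for all 8 genes), with capitals marking each match, on either strand, to GGG, any 3 bases and then TTCC, a common way of writing the NF-kB motif.
Cxcl1, chr5:90891141-90891240: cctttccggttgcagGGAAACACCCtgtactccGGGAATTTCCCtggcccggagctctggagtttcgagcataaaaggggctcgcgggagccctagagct
Cxcl2, chr5:90903771-90903870: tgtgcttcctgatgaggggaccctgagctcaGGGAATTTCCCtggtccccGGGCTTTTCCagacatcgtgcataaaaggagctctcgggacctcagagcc
Cxcl3, chr5:90786001-90786100: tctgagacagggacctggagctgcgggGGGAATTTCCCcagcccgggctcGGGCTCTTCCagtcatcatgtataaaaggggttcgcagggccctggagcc
All 3 hold GGGAATTTCC, which overlaps its own match on the other strand by 9 bases, and it began 71, 97 and 73 bases ahead of the RefSeq start of Cxcl1, Cxcl2 and Cxcl3. In the 250 bases ahead of the start, the stricter form, GGGAA, any 1 base and then TTCC, stood in all 3 ligands, in 0 of the 5 receptors and in 0.283% (93) of 32851 promoters. The looser form stood in the 3 ligands, in Csf3r and in 4.65% of promoters. GAGGAAG, a motif of PU.1, stood in Csf3r and in no other member, against 10.6% of promoters, and TTGC, any 2 bases and then AA, a motif of C/EBP factors, stood in 0 members and 9.56% of promoters. A match describes the letters of the window and not binding of a factor.

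The receptor genes are spread over the genome, with Cxcr2 at chr1:74153989-74161246, Csf3r at chr4:126024550-126044440, C5ar1 at chr7:16246743-16259540 on the minus strand, and the neighbours Fpr1 (chr17:17876471-17883940, minus strand) and Fpr2 (chr17:17887824-17893952) with 3883 bases between them. The spliced transcripts of Cxcl2 and Cxcl3 were 90.4% identical over 356 aligned bases and shared a run of 110 bases, so a read that falls in that run cannot be assigned to either. The longest run shared by Fpr1 and Fpr2 was 50 bases, that of Cxcl1 with Cxcl2 was 23 bases and that of Cxcl1 with Cxcl3 was 23 bases. Levels of Cxcl3 beside high levels of Cxcl2 carry that uncertainty.

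After the study's limits on genes and mitochondrial share, 23011 cells or 92.6% of barcodes were kept, 6783 untreated, 3748 with the STING agonist, 7147 with the LTbR agonist and 5333 with the combination, at medians of 5750 to 7094 UMIs (counted mRNA molecules) per cell. Barcode sequences found in more than 1 library numbered 246 of 22765. Cells were clustered without the 8 genes and named from marker genes. The neutrophil-like class held 199, 280, 308 and 59 cells (untreated, STING agonist, LTbR agonist, combination, the order kept throughout), which is 2.93% (2.55 to 3.36), 7.47% (6.65 to 8.36), 4.31% (3.85 to 4.81) and 1.11% (0.843 to 1.42) of cells. These shares depended on how the class was drawn, since naming each cell by its highest marker score gave 527, 418, 727 and 240 cells. In the clustered class 10 of 11 neutrophil markers were detected, summing to 80399 to 101329 CPM (UMIs per 1000000 of the class), against 1023 to 1641 CPM in macrophage- or monocyte-like cells. Ly6g, a defining neutrophil gene, was seen in 1.5% to 5.2% of the class only. Macrophage- or monocyte-like cells numbered 3107, 1497, 2974 and 1870. A neutrophil-like cell gave a median of 2103, 2309.5, 2020.5 and 1799 UMIs, against 8606, 10376, 7770 and 7514.5 for a macrophage- or monocyte-like cell, so levels are given both as CPM, the share of a class's mRNA, and as UMIs per cell.

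**Figure D1:**
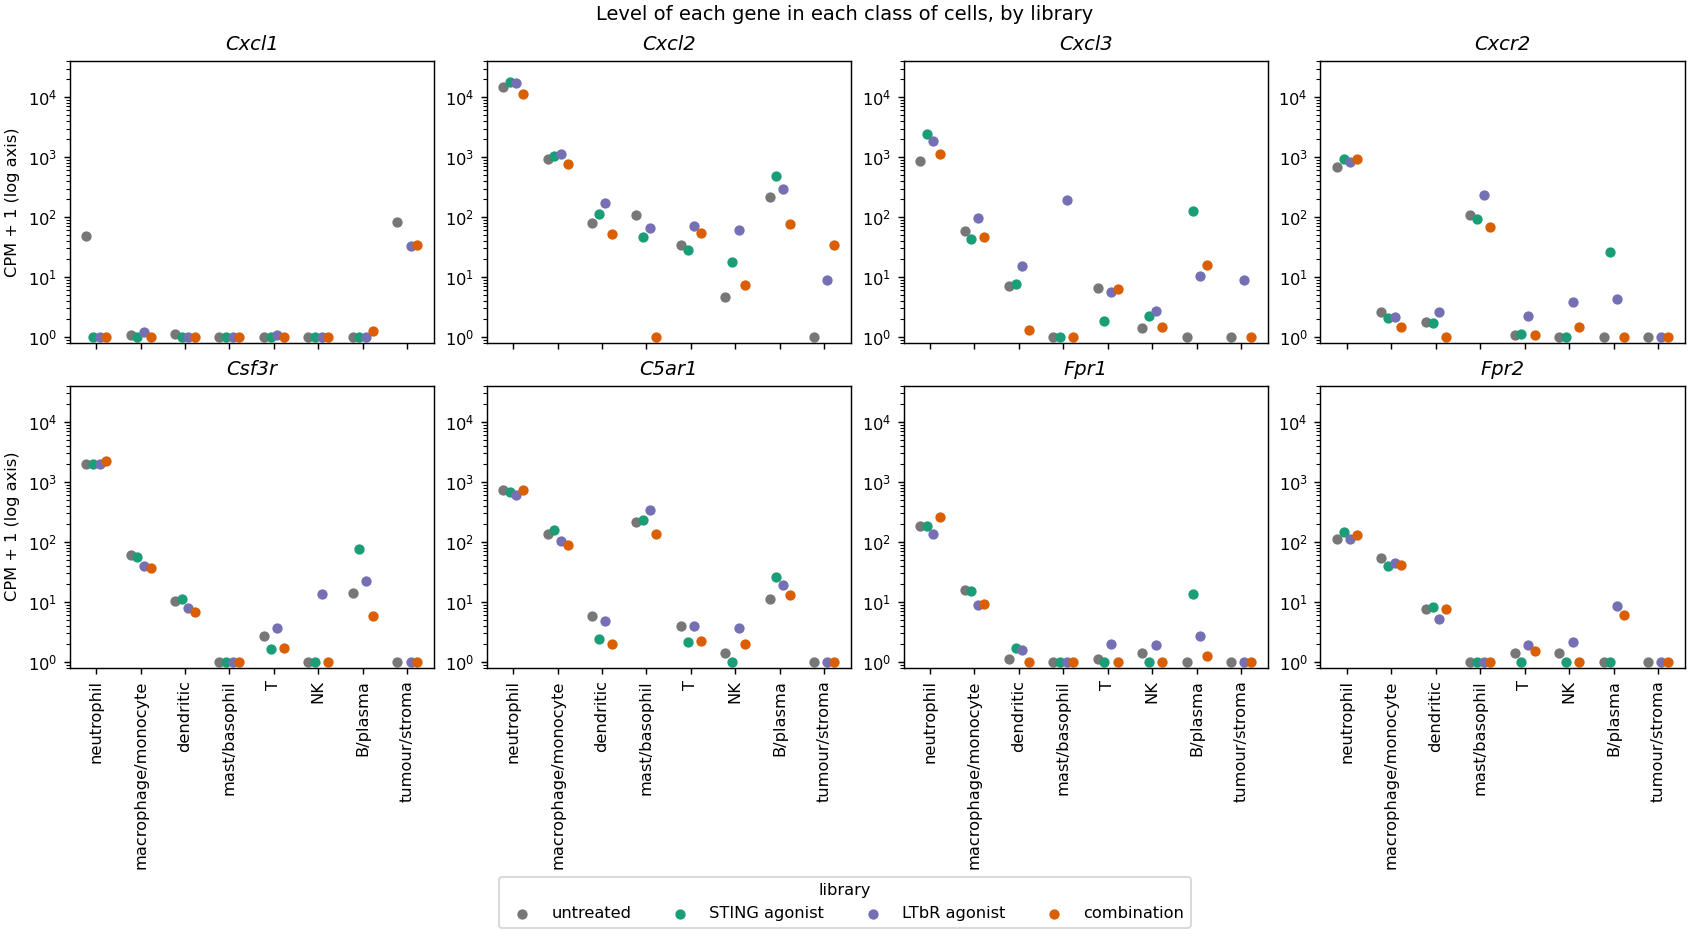
Level of each of the 8 genes (CPM + 1, log scale) in each cell class, with 1 point per library and no intervals drawn. Cxcl2 and Cxcl3 were highest in neutrophil-like cells and next in macrophage- or monocyte-like cells among the named classes of at least 50 cells, and Cxcr2 stood near 0 in the latter.

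Of the ligands, Cxcl2 gave 129324 UMIs in 5861 cells (25.5% of all), Cxcl3 gave 10244 UMIs in 878 cells (3.82%), and Cxcl1 gave 46 UMIs in all libraries together. Of the 46 Cxcl1 UMIs, 20 came from 1 neutrophil-like cell of the untreated library, 14 from the 17 tumour- or stroma-like cells and 7 from macrophage- or monocyte-like cells. In the 3 treated libraries no Cxcl1 UMI was found in a neutrophil-like cell, and a count of 0 allows up to 4.37, 4.50 and 27.2 CPM there. A sort on CD45 leaves out most fibroblasts, endothelium and tumour cells, and Cxcl1 made by those cells was not measured.

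Neutrophil-like cells held Cxcl2 at 14556 CPM in the untreated library, 17765 CPM with the STING agonist, 17226 CPM with the LTbR agonist and 11421 CPM with the combination. Cxcl2 was found in 89.4%, 90.7%, 91.9% and 81.4% of these cells. The single-agonist libraries were the higher pair and the combination was the lowest. Macrophage- or monocyte-like cells held 928, 1039, 1122 and 764 CPM. There too the combination was lowest and the single agonists highest, with the LTbR agonist library above the STING agonist library, and Cxcl2 was found in 42.5%, 49.0%, 45.8% and 36.9% of cells. Within a library the neutrophil-like level was 14.95 to 17.1 times the macrophage level in CPM and 3.44 to 4.01 times in UMIs per cell, since a neutrophil-like cell holds less mRNA. T-like cells, which are not known as a main source of Cxcl2, had a UMI in 58 of 1916, 49 of 1359, 106 of 2124 and 86 of 2045 cells, the background to these shares at median depths of 4250 to 5066 UMIs. After each cell was thinned to 1000 UMIs, Cxcl2 was found in 87.8%, 88.5%, 92.5% and 72% of neutrophil-like cells and 27.8%, 33.2%, 30.6% and 23.3% of macrophage- or monocyte-like cells.

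Cxcl3 differed more between the libraries than Cxcl2. Neutrophil-like cells held 851 CPM untreated, 2438 CPM with the STING agonist, 1870 CPM with the LTbR agonist and 1117 CPM with the combination. The counting intervals of the untreated library (766 to 943) and of the single-agonist libraries (2323 to 2558 and 1768 to 1977) did not overlap. The share of cells with Cxcl3 moved less than the level, at 26.6%, 33.2%, 31.8% and 25.4%. A few cells carried much of the count, since the 10 richest cells held 53.6%, 49.8%, 37.6% and 93.5% of the Cxcl3 UMIs, and 1 cell held 38.2% of the 123 UMIs of the combination. In macrophage- or monocyte-like cells Cxcl3 stood at 58.8, 42.5, 96.3 and 44.8 CPM and was found in 4.28%, 3.94%, 6.69% and 3.26% of cells. There the LTbR agonist library was highest and the STING agonist library lowest, whereas the STING agonist library was highest in neutrophil-like cells. Few macrophages carried much of the count too. In the cluster led by C1qb and C1qa (3170 cells) the 10 richest cells held 61.9%, 82.8%, 47.0% and 95.8% of its Cxcl3 UMIs.

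The cells with Cxcl3 were nearly all cells with Cxcl2. Among thinned neutrophil-like cells of the 4 libraries, Cxcl2 was found in 99.1% of the 216 with Cxcl3 and in 84.8% of the 564 without. In macrophage- or monocyte-like cells the shares were 84.0% of 206 and 27.4% of 8909. The near-identical stretches of the pair bear on these shares, and their part was not tested.

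**Figure D2:**
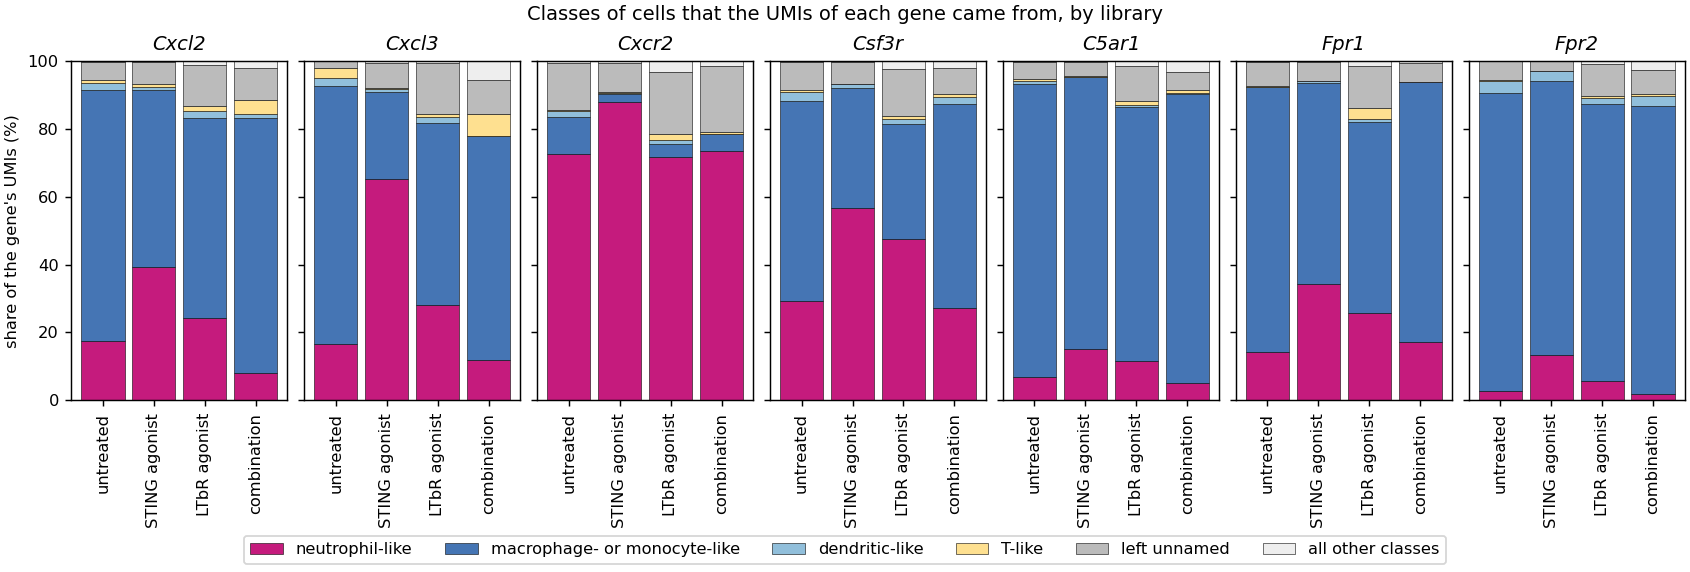
Share of each gene's UMIs (percent) that came from each cell class, by library, for the 7 genes other than Cxcl1. Neutrophil-like cells gave 39.2% of Cxcl2 UMIs in the STING agonist library and 8.15% in the combination, and 71.8% to 87.9% of Cxcr2 UMIs.

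Because macrophages were many and neutrophils few, most of the Cxcl2 mRNA in each library came from macrophage- or monocyte-like cells, which gave 74.1%, 52.3%, 58.9% and 75.2% of its UMIs. Neutrophil-like cells gave 17.6%, 39.2%, 24.3% and 8.15%, from 2.93%, 7.47%, 4.31% and 1.11% of the cells. For Cxcl3 the leading source changed with the library. Neutrophil-like cells gave 16.6%, 65.1%, 28.0% and 11.9% of its UMIs and macrophage- or monocyte-like cells gave 76.0%, 25.9%, 53.7% and 66.0%, so that the STING agonist library was the only one of the 4 in which the clustered neutrophil-like cells gave more than macrophages. With cells named by marker score the neutrophil-like shares of Cxcl3 were 32.0%, 76.5%, 52.3% and 29.3%, over 50% in both single-agonist libraries. The shares follow both the number of cells sorted and the level in each cell. Cells left unnamed for high doublet scores or mixed markers, 756 in all, gave 5.21%, 6.62%, 12.1% and 9.41% of Cxcl2 UMIs.

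Dendritic-like cells held Cxcl2 at 104 CPM, B- or plasma-like cells at 141 CPM, T-like cells at 47.5 CPM and NK-like cells at 26.2 CPM over the 4 libraries. Among T-like clusters the highest were that led by Foxp3, the factor of regulatory T cells, at 219 CPM, where 11.8% of 770 cells had a UMI and 10 cells held 57.6% of the count, and that led by Il17a and Cd163l1 at 178 CPM, where 10 of 416 cells held 87.8%. Of the cells of these clusters 0.519% and 2.64% had a high doublet score. The Il17a cluster held the myeloid genes Lyz2 at 404 CPM and S100a9 at 177 CPM, and the B- or plasma-like cluster held Lyz2 at 440 CPM and Apoe at 351 CPM, against 60.4, 18.9 and 17.99 CPM of Lyz2, S100a9 and Apoe in the Foxp3 cluster. The part of macrophage or neutrophil RNA in these Cxcl2 levels was not tested.

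Within the macrophage- or monocyte-like class, Cxcl2 varied more between clusters than between libraries. The cluster led by heat shock genes and Hmox1 (403 cells) held 1830 CPM, the cluster led by the interferon-induced genes Rsad2, Cmpk2 and Ifit2 (513 cells) held 1682 CPM, and the cluster led by the complement genes C1qb and C1qa (3170 cells) held 1383 CPM. Lower levels stood in the cluster led by Retnla at 662 CPM, that led by Ccl8 and Pf4 at 568 CPM and that led by Tgm2 and Timp1 (2202 cells) at 503 CPM. The lowest were the cluster led by Ace and Adgre4, genes of non-classical monocytes, at 157 CPM and that led by Plcb1, Gm9733 and Hp at 134 CPM. Cxcl3 had its highest macrophage levels in the first 3 of these clusters, at 297, 196 and 78.9 CPM. In the Rsad2 cluster the 10 richest cells held 93.0%, 100%, 96.4% and 100% of its Cxcl3 UMIs. The order of libraries differed by cluster. The C1q cluster held Cxcl2 at 1174, 1344, 1743 and 1392 CPM, with the combination above untreated, whereas the Tgm2 cluster held 439, 537, 714 and 268 CPM, with the combination lowest. The Ccl8 cluster held 415, 273, 430 and 820 CPM and was highest in the combination.

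**Figure D3:**
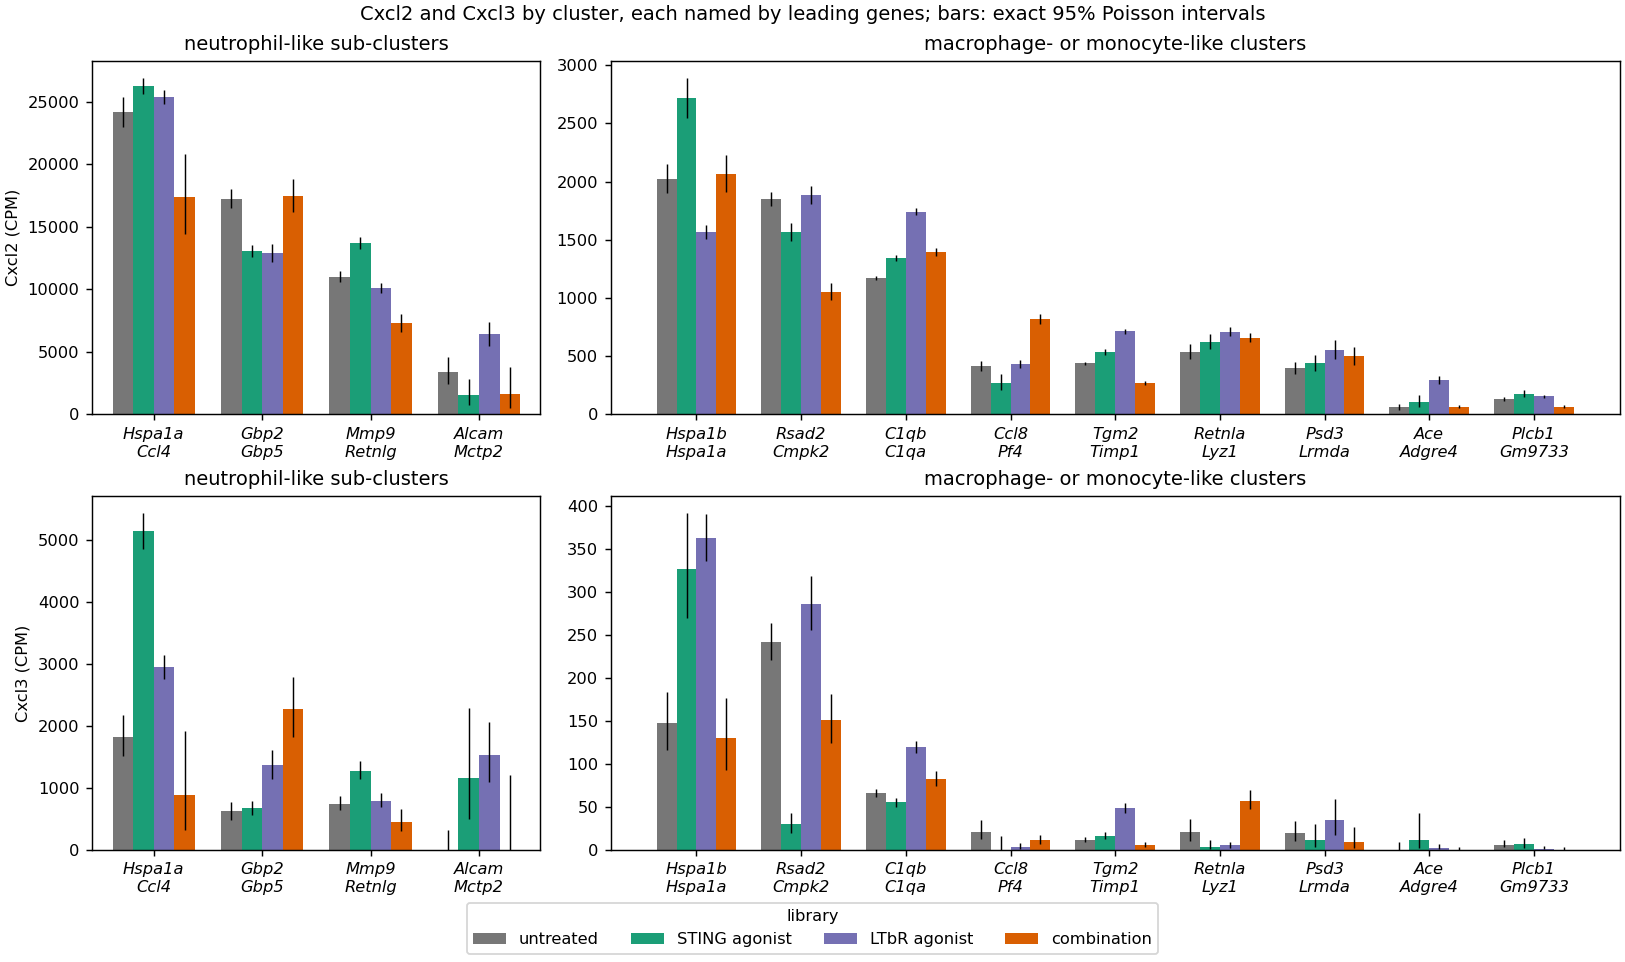
Cxcl2 and Cxcl3 levels (CPM, linear scale) in neutrophil sub-clusters and in macrophage- or monocyte-like clusters, as bars by library with error bars for counting error. The neutrophil sub-cluster led by Hspa1a, Ccl4 and Ccl3 had the highest levels of both, 25501 and 3655 CPM over the 4 libraries.

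Neutrophil-like cells also fell into sub-clusters with different ligand levels. The first (259 cells) was led by the chaperones Hspa1a and Hspa1b with the chemokines Ccl4 and Ccl3, and held Cxcl2 at 25501 CPM and Cxcl3 at 3655 CPM. The second (197 cells) was led by the interferon-induced genes Gbp2, Gbp5 and Cxcl10, and held 14483 and 938 CPM. The third (356 cells) was led by Mmp9 and Retnlg, genes of mature neutrophils, and held 11252 and 895 CPM. In the heat shock and chemokine sub-cluster Cxcl2 was 24154, 26255, 25381 and 17403 CPM and Cxcl3 was 1814, 5132, 2945 and 877 CPM, the last from 4 cells. That sub-cluster made up 16.1%, 31.8%, 43.5% and 6.78% of the neutrophil-like cells, and it gave 33.0%, 73.5%, 70.8% and 4.88% of their Cxcl3 UMIs. In the combination 73.2% of Cxcl3 UMIs came from the 22 cells of the Gbp2 sub-cluster. In the Mmp9 sub-cluster, Cxcl3 was 740, 1270, 789 and 446 CPM. A further 84 cells, led by the granule genes Ngp and Camp of young neutrophils together with the antigen presentation genes Cd74 and H2-Ab1, gave a median of 10587 UMIs and were left out of the class. Of their 10 leading genes 1 was a marker of another class and 0 were on the neutrophil marker list. They held Cxcl2 at 4995 CPM, Cxcl3 at 538 CPM and Cxcr2 at 191 CPM. Also left out were 41 cells led by Nkg7, Gzmb, Ms4a4b and Cd3d, of which 70.7% had a high doublet score. Heat shock genes can be raised when tissue is digested at 37°C, which all libraries underwent, and the part of digestion in these levels was not tested.

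The receptors were read next. Cxcr2 was the receptor with the largest share of its UMIs in neutrophil-like cells, 72.5%, 87.9%, 71.8% and 73.4%. It stood at 683, 914, 817 and 926 CPM in neutrophil-like cells, with counting intervals of 607 to 766 for untreated and 844 to 988 for the STING agonist. In macrophage- or monocyte-like cells it stood at 1.59, 1.09, 1.13 and 0.461 CPM, from 45, 17, 28 and 7 UMIs. The neutrophil level was 430 times the macrophage level in the untreated library (counting interval 285 to 660), and 2010 times in the combination (795 to 6069), where the macrophage count was 7. Cxcr2 was found in 62.8%, 75.7%, 62.0% and 59.3% of neutrophil-like cells, and in 48.6% (41.1 to 56.1), 58.9% (52.8 to 64.8), 45.9% (39.9 to 51.9) and 46% (31.8 to 60.7) after thinning. The STING agonist library was highest in both, and only its interval and that of the LTbR agonist library did not overlap after thinning. Outside neutrophils the 28 mast- or basophil-like cells had 16 Cxcr2 UMIs, 156 CPM. Cxcr1, the other receptor of this kind, gave 6, 14, 25 and 1 UMIs in neutrophil-like cells.

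Csf3r held nearly the same level in the clustered neutrophil-like cells of each library, at 1976, 2026, 2013 and 2242 CPM, and was found in 88.4%, 93.9%, 92.2% and 88.1% of them. The counting intervals of the 4 levels overlapped. Macrophage- or monocyte-like cells held 59.7, 55.0, 38.8 and 35.7 CPM, lower in both libraries with the LTbR agonist, with a UMI in 36.8%, 36.7%, 24.2% and 21.6% of cells. Although each macrophage held little, macrophage- or monocyte-like cells gave 58.8%, 35.2%, 34.1% and 60% of Csf3r UMIs and neutrophil-like cells 29.4%, 56.8%, 47.4% and 27.3%. After the neutrophils, the macrophage cluster led by Plcb1, Gm9733 and Hp had the highest Csf3r, at 94.5 CPM.

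C5ar1 was shared by both classes. Neutrophil-like cells held it at 718, 670, 593 and 726 CPM, and macrophage- or monocyte-like cells at 134, 155, 104 and 88.0 CPM. In UMIs per cell the classes stood nearer to each other, 1.01 to 1.90 times as high in neutrophil-like cells, at 1.54 against 1.22 untreated, 1.64 against 1.62 with the STING agonist, 1.28 against 0.871 with the LTbR agonist and 1.36 against 0.715 with the combination. C5ar1 was found in 70.9%, 68.6%, 58.1% and 66.1% of neutrophil-like cells and 49.2%, 53.9%, 39.5% and 34.3% of macrophage- or monocyte-like cells, and the latter gave 75.1% to 86.2% of its UMIs. The 28 mast- or basophil-like cells held 27 UMIs, 263 CPM. Dendritic-like cells held 3.47 CPM.

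The formyl peptide receptors differed in how far their levels stood apart between the classes. Fpr1 stood at 180, 184, 132 and 254 CPM in neutrophil-like cells and at 14.9, 13.99, 7.72 and 8.23 CPM in macrophage- or monocyte-like cells, 12.05 to 30.9 times as high in the former. Fpr2 stood at 112, 143, 113 and 127 CPM against 52.0, 38.1, 43.7 and 39.6 CPM, 2.16 to 3.75 times as high in CPM but 0.509 to 0.879 times in UMIs per cell. Macrophage- or monocyte-like cells gave 80.9% to 87.8% of Fpr2 UMIs. Fpr1 UMIs were also many in macrophages. Over the 4 libraries the C1q cluster alone held 584 of them, against 379 in the whole neutrophil cluster before sub-clusters were left out. In the LTbR agonist library these were 91 and 105. The macrophage cluster led by Rsad2 held Fpr2 at 137, 67.5, 123 and 90.9 CPM. The combination values of Fpr1 and Fpr2 in neutrophil-like cells rest on 28 and 14 UMIs.

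**Figure D4:**
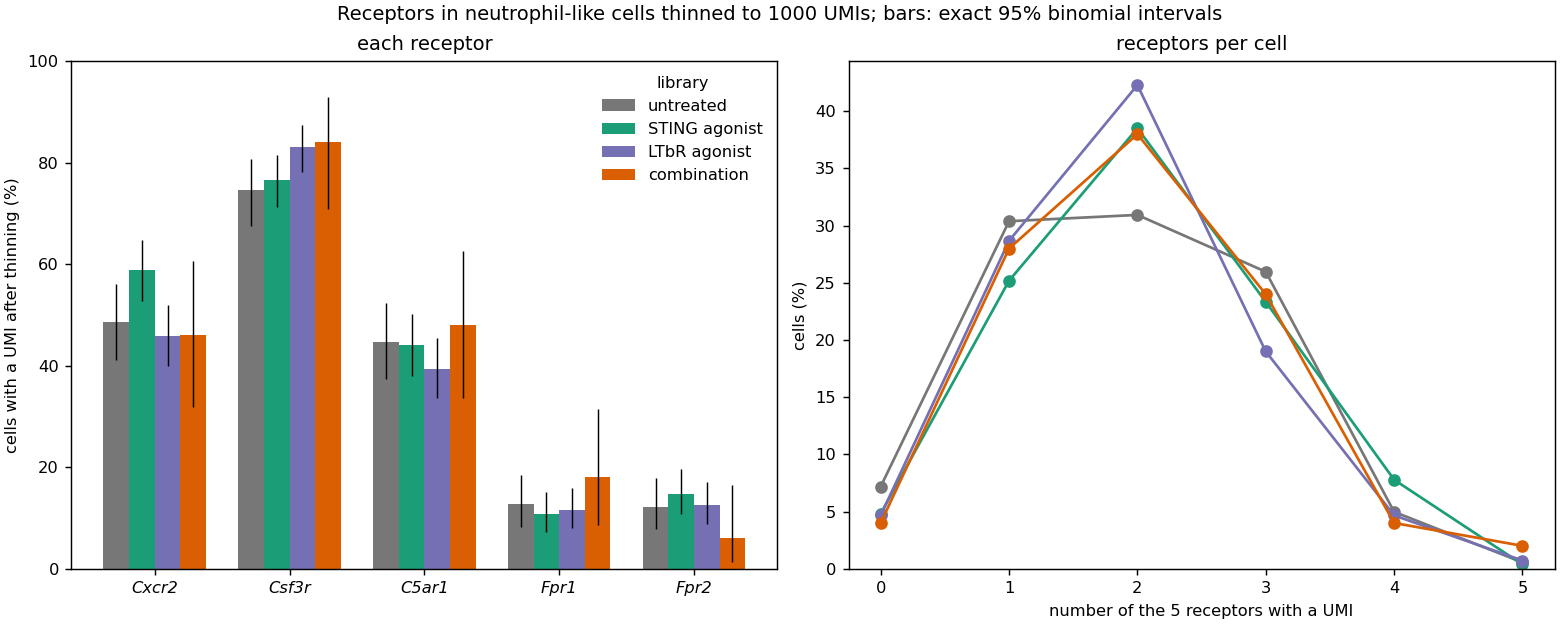
Share of neutrophil-like cells (percent) with a UMI of each of the 5 receptors after thinning to 1000 UMIs per cell, by library, with exact 95% binomial bars. Cxcr2 was found in 58.9% of the STING agonist cells and in 45.9% to 48.6% of the others.

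Per thinned neutrophil-like cell, a mean of 1.93, 2.05, 1.92 and 2.02 of the 5 receptors was detected, and 7.18%, 4.81%, 4.66% and 4% of cells had none. Csf3r was found in 80.4% of the cells with Cxcr2 and in 77.5% of those without, and Fpr2 in 22.6% of those with Fpr1 and 11.5% of those without. The receptors also differed between sub-clusters. The Mmp9 sub-cluster had more Cxcr2 (1063 CPM) and Csf3r (2500 CPM) than the heat shock and chemokine sub-cluster (611 and 1580 CPM), the reverse of their order in Cxcl2 and Cxcl3. Within the Mmp9 sub-cluster Cxcr2 stood at 783, 1152, 1228 and 1123 CPM, lowest in the untreated library.

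Differences between libraries were then set out as log2 ratios of CPM after adding 10 CPM, with a gene counted where it had at least 50 UMIs in 1 of the 2 libraries, and a log2 ratio of at least 1 in size taken as past the fold. The treated libraries share the untreated library as control. In neutrophil-like cells 7 of the 8 genes were counted for the STING agonist over untreated, and 1, Cxcl3, was past the fold at 1.51 (counting interval 1.29 to 1.73), where 1.1% of 1815 genes were. For the LTbR agonist over untreated 1 of 7 was, again Cxcl3 at 1.13 (0.90 to 1.36), where 3.11% of 1735 genes were. For the combination over untreated 0 of 6 were, with Cxcl3 at 0.39 (-0.02 to 0.79), where 4.43% of 1286 genes were. Cxcl3 stood at -1.12 (-1.45 to -0.80) in the combination over the STING agonist, where 5.76% of genes were past the fold, and at -0.74 over the LTbR agonist, where 8.15% were. Cxcl2 followed at smaller size, at 0.29, 0.24 and -0.35 over untreated. The size of the Cxcl3 ratios depended on the heat shock and chemokine sub-cluster. That sub-cluster held the highest Cxcl3 level, so leaving it out removes cells rich in Cxcl3. Without it the ratios were 0.55, 0.55 and 0.74, none past the fold, where 1.32%, 2.35% and 3.31% of genes were. With the same sub-cluster weights in every library they were 1.18, 0.67 and -0.04, and that of the STING agonist stayed past the fold. Without that sub-cluster the combination over the STING agonist also turned, from -1.12 to 0.19. With cells named by marker score, which put 527 untreated cells in the class where clustering put 199, the STING agonist ratios were 2.22 for Cxcl3 and 1.40 for Cxcl2, where 2.12% of genes were past the fold, and the combination ratio of Cxcl3 was -0.19.

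Of the 5 receptors in neutrophil-like cells, 0 of 5, 0 of 5 and 0 of the 4 counted were past the fold over untreated. Cxcr2 stood at 0.42 (0.14 to 0.69), 0.25 and 0.43, Csf3r at 0.04, 0.03 and 0.18, and C5ar1 at -0.10, -0.27 and 0.02. Fpr1 stood at 0.03, -0.42 and 0.48, and Fpr2 at 0.32 and 0.00, with too few UMIs to be counted in the combination. With cells named by marker score 2 receptors were past the fold for the STING agonist, Cxcr2 at 1.59 and Csf3r at 1.18, where 2.12% of 5935 genes were and the median of all genes was -0.13, and Csf3r stood at -0.74 in the combination. In the combination over the STING agonist the same naming put Cxcr2 at -2.05, Csf3r at -1.91, C5ar1 at -1.23 and Fpr1 at -1.17. These stood at 0.02, 0.15, 0.11 and 0.45 in the clustered class. Fpr2 stayed short of the fold. The share of all genes past the fold was not counted there with that naming. The median over the 5 receptors was 0.04 and 0.00 for the single agonists, and that over the 4 counted in the combination was 0.31. In the clustered class the median of all genes lay within 0.01 of 0 in the same comparisons.

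**Figure D5:**
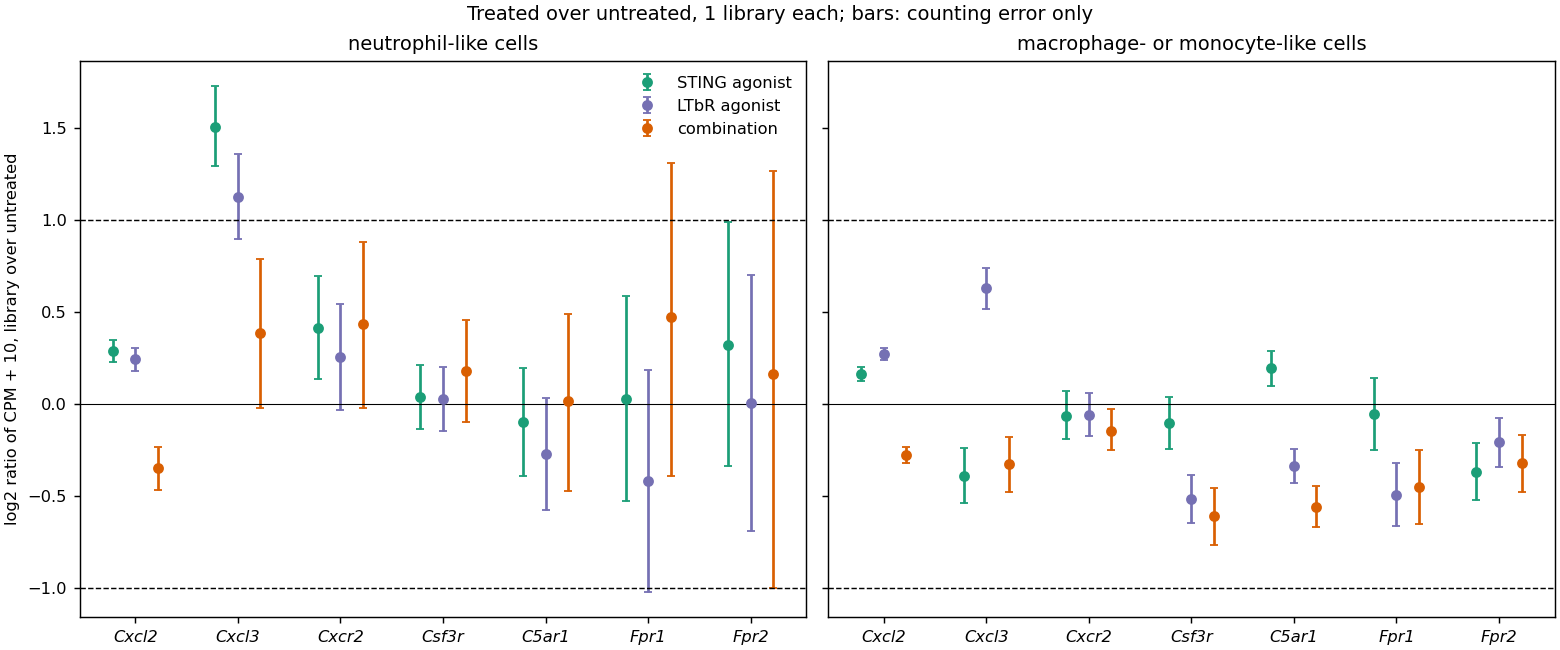
Log2 ratios over untreated (after adding 10 CPM) of each counted gene in neutrophil-like and in macrophage- or monocyte-like cells, with bars for the range of counting error and dashed lines at the fold of 1. Cxcl3 in neutrophil-like cells is past the fold with either agonist alone, at 1.51 and 1.13, and not with the combination, at 0.39.

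In macrophage- or monocyte-like cells 6 of the 8 genes were counted and 0 were past the fold for any treatment over untreated, where 0.00948% of 10549, 0.289% of 10720 and 0.585% of 10607 genes were. None of the 6 was past the fold in the combination over the LTbR agonist or over the STING agonist, where 0.182% and 0.536% of genes were. Cxcl2 stood at 0.16, 0.27 and -0.28 and Cxcl3 at -0.39, 0.63 and -0.33. With the same weight for each macrophage cluster in every library the combination values of both came to 0.04, no longer below untreated. Csf3r stood at -0.10, -0.52 and -0.61 and kept its sign with equal weights, at -0.09, -0.58 and -0.68. C5ar1 stood at 0.19, -0.34 and -0.56, against 0.24, -0.16 and -0.43 with equal weights. Fpr1 stood at -0.06, -0.49 and -0.45, against 0.04, -0.31 and -0.23. Fpr2 stood at -0.37, -0.21 and -0.32, against -0.32, 0.02 and 0.02. The median of the 4 counted receptors was -0.08, -0.42 and -0.51, beside a median of all genes of 0.005, 0.01 and 0.03.

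A list of 61 other genes of neutrophil attraction was read in the same way. In neutrophil-like cells 36, 36 and 33 of them were counted. For the STING agonist 1 was past the fold upwards and 0 downwards, for the LTbR agonist 2 and 0, and for the combination 1 and 2. Over all genes of these comparisons 1.1%, 3.11% and 4.43% were past the fold in either direction. In the group of other chemokines, Ccl4, an inflammatory CC chemokine, stood at 1873, 4699, 4485 and 2324 CPM (log2 ratios 1.32, 1.26 and 0.31) and Ccl3, a ligand of CCR1, at 1050, 1758, 1693 and 1262 CPM (0.74, 0.68 and 0.26). Their order over the libraries was that of Cxcl3. The growth factor receptor gene Csf2rb2 was the second gene up with the LTbR agonist. In the combination Anxa1, whose product binds FPR2, was up at 189, 232, 314 and 418 CPM, and Jak2, a kinase below the G-CSF receptor, and Socs3, the inhibitor of that pathway, were down. Socs3 stood at 676, 1045, 949 and 309 CPM, the last from 34 UMIs. Csf2rb2 and Jak2 were named after their values were seen. Il1b, a cytokine that induces the ligands, stood at 21322, 23315, 20874 and 17059 CPM.

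In macrophage- or monocyte-like cells 45, 47 and 46 of the 61 genes were counted, and Ccl6, up with the LTbR agonist, was the single gene past the fold, where 0.289% of all genes were with that agonist. The other ligands of CXCR2 were scarce. Cxcl5 had 0 UMIs in neutrophil-like cells, and Ppbp had 2, 1, 105 and 0 UMIs in macrophage- or monocyte-like cells, nearly all in the LTbR agonist library. C5ar2, the second receptor of C5a, stood at 18.9, 14.1, 10.2 and 5.92 CPM there. Csf3, Csf2 and Hc, the genes of G-CSF, GM-CSF and complement C5, were below the minimum of 50 UMIs in both classes.

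Lastly, genes with the most similar pattern over the 25 clusters of at least 50 cells were found by Pearson's r of log2 levels, as a description, since clusters share libraries and depth. Cxcl2 was nearest to Ptgs2 (r = 0.92), Il1rn and Ier3, and Cxcl3 to Mirt2 (0.93), Hcar2 and Acod1. Cxcr2 was nearest to Camp (1.00), Ngp and Stfa2l1, all neutrophil genes, and Csf3r to F630028O10Rik (0.97), Tlr6 and Kcnj2. The value for Cxcr2 rests on 1 cluster, since the neutrophil cluster held 611 CPM and the next highest 3.90 CPM. Within neutrophils Cxcr2 did not follow Camp and Ngp. The left-out sub-cluster led by those genes had the lowest Cxcr2 of the neutrophil sub-clusters, 191 CPM. C5ar1 was nearest to C5ar2 (0.96), Pilra and Pla2g7, Fpr1 to Mirt2 (0.95), Spatc1 and Acod1, and Fpr2 to Clec4e (0.95), Alas1 and Ier3. The pattern of Cxcl1 rests on 46 UMIs and is not given.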

How the data were processed

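Live CD45+ cells of pooled tumours were profiled by 5′ single-cell RNA sequencing (10x Genomics), 1 library per group. The authors made the deposited counts (UMIs per gene and cell, raw) with Cell Ranger 7.1.0 on mm10, per the labels. Cells with 300 to 5000 genes and at most 6% mitochondrial UMIs were kept, as in the study's methods. With scanpy 1.11.5, counts scaled to 10000 per cell and logged were reduced over 2000 variable genes (without the 8 genes and without antigen receptor genes) to 30 components, joined to 20 neighbours and clustered by Leiden at resolution 1. Clusters were named from fixed markers. Clusters were left unnamed where over 50% of cells had a doublet score of 0.2 or more. Clusters and neutrophil sub-clusters were also left out where their 10 leading genes held more markers of another class than of their own. These exclusions were set after clusters were seen, and doublets were otherwise kept. UMIs were summed per class and library and given as CPM with exact Poisson intervals, and shares of cells with exact Clopper-Pearson ones (95%). For a ratio, the low bound of one library was divided by the high bound of the other and conversely, which is wider than 95%. A floor of 3 counts applies to a count of 0. Intervals and floors cover counting error only. Thinning drew 1000 UMIs per cell and left out 18, 10, 29 and 9 shallower neutrophil-like cells. No test was possible with 1 library per group. The ratio and interval were run on simulated Poisson counts with known changes. The interval assumes such counts, so this run cannot show how it holds where UMIs crowd in few cells. Positions are from GENCODE vM21. Named genes were the 8, at most 3 per list by UMIs, and 3 nearest genes each. The members, lists and markers were chosen with earlier results of these data known. The study had 2 single-cell experiments, and which of them gave each library is not given in the sources used here. Alternatives were other pseudocounts, scaling, cell filters, class names, resolutions, doublet removal and cluster weights.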

Additional observations from a re-analysis of the deposited data

Results flagged for a closer look

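In 4 gene and class pairs an agonist's log2 effect pointed one way alone and the opposite way when the other agonist was also given. Only turns in which both counting intervals left out 0 were taken. With 1 library per group this difference was not tested. The size of each is the effect with the other agonist minus the effect alone. In neutrophil-like cells Cxcl3 stood at 1.51 for the STING agonist alone and -0.74 with the LTbR agonist, and at 1.13 for the LTbR agonist alone and -1.12 with the STING agonist, a difference of -2.25 in both. Cxcl2 in neutrophil-like cells stood at 0.29 alone and -0.59 with the other for the STING agonist, and at 0.24 and -0.64 for the LTbR agonist, a difference of -0.88 in both. Cxcl2 in macrophage- or monocyte-like cells stood at 0.16 and -0.55 for the STING agonist and at 0.27 and -0.44 for the LTbR agonist, a difference of -0.71. The value of -0.44 ranged from -0.52 to -0.14 over the alternatives, which include equal cluster weights. Not every macrophage cluster followed the class. In the C1q and Ccl8 clusters Cxcl2 was higher in the combination than with the STING agonist alone. C5ar1 in macrophage- or monocyte-like cells stood at 0.19 and -0.22 for the STING agonist, a difference of -0.41. Without the heat shock sub-cluster of neutrophils, an alternative added after seeing the data, the sign no longer turned for either gene there. Cxcl3 then stood at 0.55 alone and 0.19 with the other for each agonist, and Cxcl2 at 0.05 and 0.06 for the STING agonist and at -0.28 and -0.26 for the LTbR agonist. Signs also turned, with a counting interval that reached 0, for C5ar1, Fpr1 and Fpr2 in neutrophil-like cells and for Fpr1 and Fpr2 in macrophage- or monocyte-like cells. The largest of these was Fpr1 in neutrophil-like cells, at -0.42 for the LTbR agonist alone and 0.45 with the other, a difference of 0.87. All of these rest on the combination library, and its neutrophil-like class held 59 cells.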

How the results depend on the processing

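Of 960 log2 ratios of the 8 genes under alternatives, 833 stayed close to the reported value, 126 moved beyond its counting interval and 1 that was past the fold changed sign, namely Cxcl3 in neutrophil-like cells, combination over the STING agonist, which came to 0.19 without the heat shock sub-cluster, an alternative added after seeing the data. That alternative left 0 ligands past the fold for the STING agonist and 0 for the LTbR agonist, and equal sub-cluster weights, also added, left 0 for the LTbR agonist. Naming cells by marker score put 2 ligands and 2 receptors past the fold for the STING agonist, where 2.12% of genes were. It also moved the receptors in the combination over the STING agonist, with Cxcr2 going from 0.02 to -2.05 and Csf3r from 0.15 to -1.91. The share of all genes past the fold was not counted for that pair with that naming. The share of Cxcl2 UMIs from neutrophil-like cells (untreated, STING agonist, LTbR agonist, combination) was 16.1%, 38.4%, 22.96% and 7.31% with all barcodes, 27.1%, 47.8%, 41.4% and 21% by marker score, 18.4%, 41.0%, 26.1% and 8.61% without high doublet scores, 18.3%, 40.8%, 26.8% and 8.87% without cells holding markers of 2 classes, and 19.9%, 44.6%, 30.7% and 11.0% with the excluded sub-clusters kept (added). With a minimum of 10 UMIs, 3.32%, 6.04% and 12% of genes were past the fold in neutrophil-like cells. The cause was not tested beyond what each alternative removes. No paired analysis was possible because each group had 1 library, which leaves no replicates to pair. Depth limits the combination, with 59 neutrophil-like cells.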
